A study of Brassica napus with 112 samples.

Results

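The heat response of Lumen siliques at 7 days after flowering (DAF) was taken from 14 of the 112 RNA-seq libraries of the series. They were chosen by their labels alone, as silique libraries of the spring rapeseed hybrid Lumen sampled on day 7. Of these, 7 came from heated plots (3 in season 1, 2019, and 4 in season 2, 2020) and 7 from control plots (3 and 4 in the same seasons). Heated plots stood under polyethylene film with thermo-fans, with a target of 5 °C above ambient, from the start of flowering until past this sampling day. The mean increases that the study reports for these treatments lay somewhat below that target. Control plots had neither film nor fans. The film takes away some light, so warming cannot be told apart from shading or enclosure in any value below. All plants were the same hybrid, and the material was pooled from 5 plants per plot. The study describes each library as an independent field plot, with 4 per group in season 2, whereas its account of the field layout gives fewer plots. The p-values measure the spread between these libraries.

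The silique is the fruit of rapeseed. Its green wall encloses the seeds, fixes carbon during pod filling and passes assimilates to the seeds within. When plants are warmed, proteins lose their fold, and cells respond with chaperones, proteins that hold or refold others. Heat shock proteins belong to this group, and co-chaperones bind them and steer their work. Photosynthesis in chloroplasts is known as a process that is sensitive to warmth.

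The values are normalized whole numbers per gene, made by the authors from pseudoaligned reads. The authors' quantification gave TPM, a unit scaled to the same sum in every library. The sums of the deposited values, given below, lie near that of TPM but differ between libraries, and the further scaling is not spelled out. The values are not read counts, and a value of 1 is the smallest step above 0. Changes are differences of log2(value + 0.5) between heat and control with season in the model, a scale on which a shift at a small value looks smaller than it is. Genes entered the test when 47% or more of the 14 libraries showed a value of 1 or higher, which held for 54173 genes. It was called where the q-value of limma's moderated test, adjusted over all tested genes by Benjamini-Hochberg, was under 0.01.

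The 14 libraries had similar totals. The values summed to 929194 to 1075370 in heated libraries and to 974672 to 1054310 in control libraries (two-sided exact permutation test within season, p = 0.524). Genes above 0 numbered 50237 to 55422 in heated libraries and 53227 to 54564 in control libraries (exact permutation p = 0.5).

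Heated libraries differed more among themselves than controls did. Within a season, the correlation of log2 values ranged from 0.814 to 0.927 over the 9 heat pairs and from 0.915 to 0.939 over the 9 control pairs. The heat library season 2 replicate 3 stood farthest from the others, with a mean correlation of 0.829 with the controls of its season. In season 1, heat replicate 2 had a mean correlation of 0.924 with the controls of its season and of 0.874 with the other heated libraries. Heat replicates 1 and 3 of that season had a correlation of 0.921 with each other. Season 2 heat replicates 1, 2 and 4 also lay closer to the controls of their season than to its heated libraries. Their means were 0.886 against 0.866, 0.917 against 0.891 and 0.922 against 0.891.

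Seed RNA was also checked, since a silique sample can hold seed material. The 26 seed-marker genes were at a mean of at least 100 in control seeds of the other hybrid, Solar, and at 1 or less in each of its control siliques at 7 DAF. Their summed value was 487 in heat season 1 replicate 1 and 666 in heat season 1 replicate 3, where all 26 markers were at 1 or more. The other 5 heated libraries had sums of 1 to 9, and the 7 control libraries had sums of 1 to 40. Lumen seeds at 7 DAF had sums of 453 to 7002, with a median of 2844.5. An exact permutation test of heat against control within season gave p = 0.357 over all 14 libraries. Both high sums lie in season 1, with 3 heated and 3 control libraries, where many arrangements put both in the same treatment. The test could thus not give a small p however high these 2 sums were, and no conclusion is drawn from it. In control libraries, 3 of the 26 markers were at 0 throughout. A wider set of 280 markers was chosen in the same way with a mean of at least 20. It summed to 2176 and 2819 in heat season 1 replicates 1 and 3, and to 29 to 299 in control libraries. Lumen seeds had 4394 to 28377 in that set, so both libraries lay below the seed range there. Season 1 heat thus holds 2 libraries with marker sums inside the range of seed libraries and 1 that lay closer to the controls than to the other heated libraries. Whether any of these 3 samples was mixed up or carried seed material was not tested, and it bears on every value of season 1. The count of calls, the named genes that rose or fell and the main gene lists are therefore also given without the 2 libraries with high sums or without the 2 that stood apart in the correlations, which were heat season 1 replicate 2 and heat season 2 replicate 3.

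**Figure D1:**
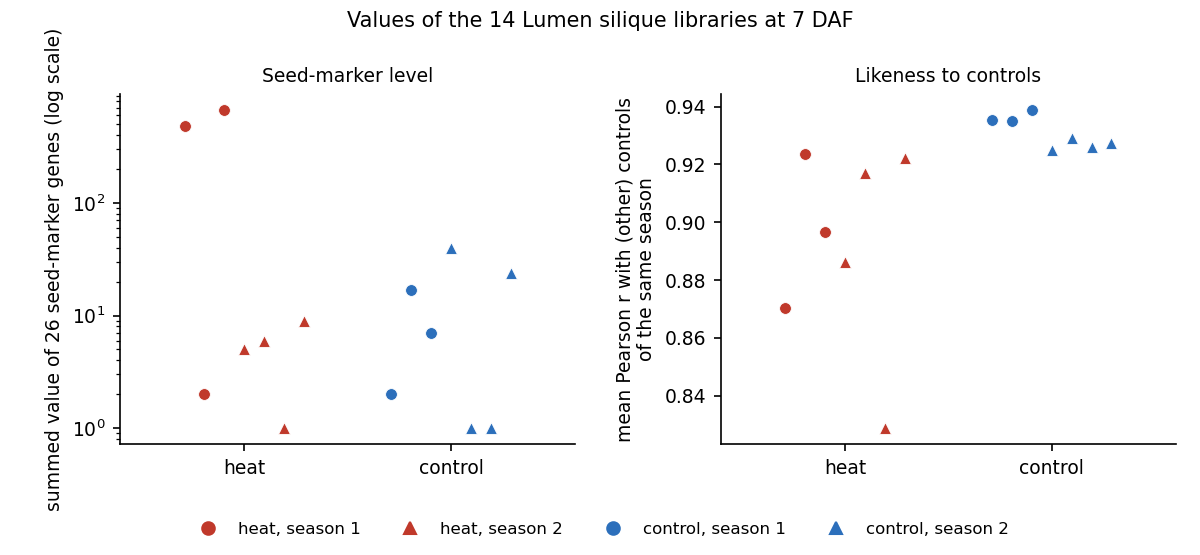
Values of the 14 Lumen silique libraries at 7 DAF, with heat on the left and control on the right, circles for season 1 and triangles for season 2. The left panel shows the summed value of 26 seed-marker genes on a log scale, where 2 heated libraries of season 1 lie at 487 and 666 and all others at 40 or below, and the right panel shows each library's mean Pearson correlation with the (other) controls of its season, which falls to 0.829 in heat season 2 replicate 3.

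Few genes passed the threshold for heat. Of the 54173 tested genes, 6 were called, 4 higher (0.00738%) and 2 lower (0.00369%) in heated siliques, or 0.0111% together. A q-value under 0.05 was reached by 75 genes (0.138%), 44 higher (0.0812%) and 31 lower (0.0572%). All 75 had the same direction in both seasons, beside 45.3% of all tested genes. The selection favours this, since the test used both seasons together, so it is not separate evidence. At an unadjusted p under 0.05 there were 6450 genes (11.9%), 3100 higher (5.72%) and 3350 lower (6.18%). The median change over all tested genes was -0.0069 and the median size of a change was 0.209 on the log2 scale, against a median residual SD of 0.411 between libraries. All 7 heated libraries lay above all 7 controls in 43 tested genes (0.0794%) and below them in 56 (0.103%).

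BnaCnng71190D was the only called rise with a mean of 20 or more across the 14 libraries. Its lowest, median and highest values were 32, 54 and 82 in heated siliques, against 13, 18 and 26 in control siliques. Every heated library lay above every control library. The change was 1.52 ± 0.18 (SE, log2 scale, limma q = 0.00965), with 1.21 in season 1 and 1.75 in season 2. The call held in only 1 of the 14 fits that left out a single library, without heat season 1 replicate 2, with changes of 1.40 to 1.62 and q-values up to 0.0384, and it was lost with a pseudocount of 5 (q = 0.0114). The heated libraries with high seed-marker sums had 45 and 53, inside the range of the other 5 heated libraries.

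BnaCnng71250D, a second gene on C-subgenome sequence without a chromosome, was named after its values were seen, since its mean value of 18.3 lay just under that minimum. It had 19, 28 and 37 as lowest, median and highest value in heated siliques, against 6, 8 and 11 in control siliques, again without overlap. Its change was 1.77 ± 0.17 (SE, log2 scale, limma q = 0.00194). The files give neither gene a product.

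The only called fall above that minimum was that of BnaA05g05760D on chromosome A05. Its lowest, median and highest values were 14, 25 and 35 in heated siliques, against 54, 67 and 87 in control siliques. No heated library reached the lowest control. The change was -1.52 ± 0.15 (SE, log2 scale, limma q = 0.00194), and it was -1.77 in season 1 and -1.34 in season 2. The other gene that fell, BnaCnng47290D, was listed at 0 in all 7 heated libraries and at 1 to 3 in the 7 controls, which is at the rounding limit of the file. It was named after its values were seen, and it passed the filter through the control group alone.

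The other 2 called genes, both on chromosome A01, were higher in heated siliques at low values. The first had a mean of 10.9 ± 5.34 in heated siliques and 2.86 ± 1.07 in control siliques (SD, n = 7 each). The second had 5.86 ± 1.22 in heated siliques and 1.43 ± 0.53 in control siliques (SD, n = 7 each).

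**Figure D2:**
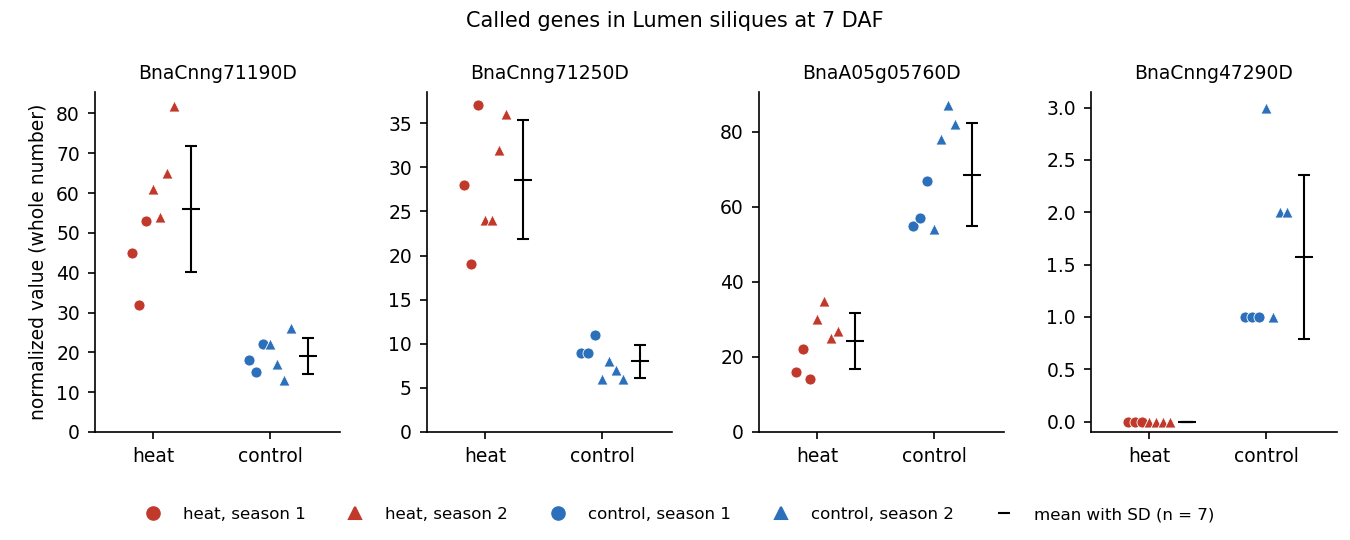
Normalized values of 4 called genes in each Lumen silique library at 7 DAF, heat on the left and control on the right of each panel, with circles for season 1, triangles for season 2 and black marks for the mean with SD (n = 7). BnaCnng71190D and BnaCnng71250D are higher in all 7 heated libraries, and BnaA05g05760D and BnaCnng47290D are lower in all 7.

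The number of calls rested on single libraries. It was 0 without control season 1 replicate 1, control season 1 replicate 2 or control season 2 replicate 4, with 5742, 5813 and 5127 genes at an unadjusted p under 0.05 in limma. It was 23 without heat season 1 replicate 2, and those 23 included all 6. It was 2 or 3 in most other cases, namely without heat season 1 replicates 1 or 3, heat season 2 replicates 1, 2 or 3, control season 1 replicate 3, or control season 2 replicates 1 or 3. It was 4 without control season 2 replicate 2 and 6 without heat season 2 replicate 4, of which 3 each were among the 6. Without both heated libraries with high seed-marker sums, 0 genes were called by limma, with 5862 at an unadjusted p under 0.05. The changes themselves moved little in that fit. They were 1.49 for BnaCnng71190D (q = 0.0625), 1.72 for BnaCnng71250D (q = 0.0198) and -1.36 for BnaA05g05760D (q = 0.0182).

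Genes of protein folding were next examined with gene lists that the study's supplement prints by transcript accession. These are Gene Ontology terms within co-expression modules, which are groups of genes with similar profiles that were built from seed libraries at 7 DAF of the same experiment. All 2258 printed accessions, of 1735 transcripts in 98 lists, matched the file. Because the modules were built with heated and control seeds, the lists are not independent evidence of a direction in heat, and some are printed only in part.

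The protein folding list of the module called firebrick lay higher in heated siliques. The list is printed in part, and of its 43 tested genes of 44 printed, 35 had a positive change, beside 26304 of all 54173 tested genes. The median change was 0.26 on the log2 scale, against -0.0069 over all tested genes. At an unadjusted p under 0.05, 13 were higher and 1 was lower, or 32.6% beside 11.9% of all tested genes. No member was called at a q-value under 0.01, beside 0.0111% of all tested genes. At a q-value under 0.05, 3 were higher, beside 0.0812% of all tested genes. With so few calls among all genes, a lack of calls in this list or those below does not set them apart. The median deviation of its members from the control mean of the season was positive in all 7 heated libraries, at 0.09 to 0.49, against -0.18 to 0.15 in control libraries. The heat library season 1 replicate 2, which resembled controls across all genes, had the highest of these medians.

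At the pseudocount of 0.5, the largest positive change among all 54173 tested genes belonged to a member of this list. BnaC01g38510D, listed under protein folding, heat shock protein binding and unfolded protein binding, had 2, 4 and 8 as lowest, median and highest value in heated siliques, against 0, 0 and 1 in control siliques. All heated libraries lay above all controls, although the values are close to the smallest step of the file. With most controls at 0, the gene passed the filter through the heated group. Its rank and its lack of overlap are thus a description only. Its change was 2.89 ± 0.36 (SE, log2 scale, limma q = 0.0135), just short of a call. With a pseudocount of 5 it was 0.89, below the 1.35 of BnaCnng71250D, the 1.32 of BnaCnng71190D and the 1.26 of BnaA03g32320D, so that this rank was lost. The heated libraries with high seed-marker sums had 8 and 7, and the other 5 had 2 to 7.

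BnaA03g32320D, listed under protein folding, had 7, 14 and 20 as lowest, median and highest value in heated siliques, against 1, 2 and 7 in control siliques. The ranges met only at 7. Its change was 2.27 ± 0.35 (SE, log2 scale, limma q = 0.0262), with 3.11 in season 1 and 1.65 in season 2. BnaA03g57740D, also listed under protein folding, had 38, 51 and 60 in heated siliques, against 29, 33 and 39 in control siliques. Only the lowest heated library overlapped the controls, and the change was 0.60 ± 0.10 (SE, log2 scale, limma q = 0.0439) and nearly the same in both seasons. These 3 genes were singled out after their values were seen, for a q-value under 0.05. Without both heated libraries with high seed-marker sums, the change was 2.65 for BnaC01g38510D (limma q = 0.0792), 1.99 for BnaA03g32320D (q = 0.14) and 0.64 for BnaA03g57740D (q = 0.126).

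The 3 members of the protein folding list with the highest values in the file, which are not known to be scaled for length, did not move alike. BnaC07g47630D had 67, 134 and 182 as lowest, median and highest value in heated siliques, against 106, 130 and 172 in control siliques. BnaCnng47600D, which is also listed under heat shock protein binding, had 98, 131 and 164 in heated siliques, against 105, 114 and 135 in control siliques. BnaC03g44640D had 87, 104 and 126 in heated siliques, against 66, 72 and 90 in control siliques. The groups overlapped in all 3. The change was -0.10 for BnaC07g47630D, 0.17 for BnaCnng47600D (limma q = 0.601) and 0.52 ± 0.10 for BnaC03g44640D (SE, log2 scale, limma q = 0.0727), and none was called.

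**Figure D3:**
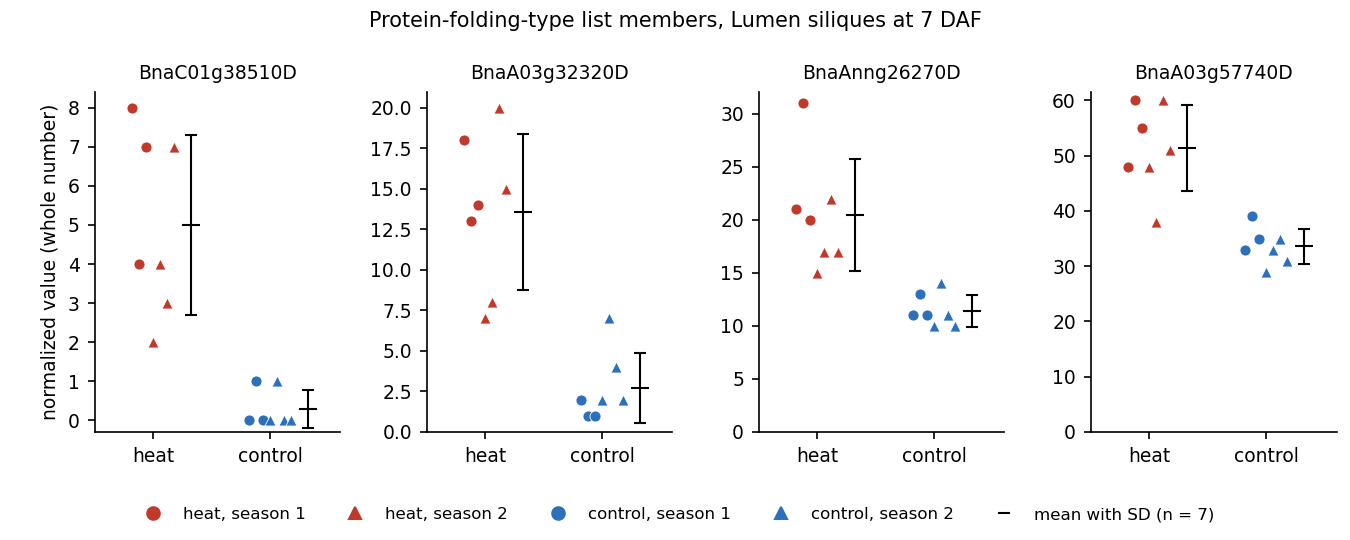
Normalized values of 4 genes of the protein folding type lists in each Lumen silique library at 7 DAF, heat on the left and control on the right of each panel, with circles for season 1, triangles for season 2 and black marks for the mean with SD (n = 7). BnaC01g38510D and BnaAnng26270D are higher in all 7 heated libraries than in any control, and BnaA03g32320D and BnaA03g57740D overlap only at the edge.

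Proteins that bind heat shock proteins include co-chaperones. Of the 17 genes of heat shock protein binding in the firebrick module, all tested, 14 had a positive change, with a median of 0.32, and none was called. At an unadjusted p under 0.05, 4 were higher and 1 was lower (29.4%, beside 11.9% of all tested genes). The median of the list was 0.00 to 0.49 across heated libraries and -0.18 to 0.15 across control libraries. The heat library season 2 replicate 1 lay at 0. This list shares members with the protein folding list, among them BnaC01g38510D and BnaCnng47600D, so the 2 lists are not separate evidence.

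This list had 3 members with a negative change, and the largest fall was that of BnaC01g27600D. It had 2, 5 and 12 as lowest, median and highest value in heated siliques, against 4, 11 and 14 in control siliques. The change was -0.85 ± 0.25 (SE, log2 scale, limma q = 0.23). Among its other members, BnaAnng05570D had 32, 42 and 48 in heated siliques, against 28, 33 and 42 in control siliques, and BnaA10g29250D had the same median of 28 in both.

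The same term in another module, lightskyblue2, had 23 tested genes, of which 17 had a positive change, with a median of 0.06. At an unadjusted p under 0.05, 0 were higher and 1 was lower in heated siliques (4.35%, beside 11.9% of all tested genes), and none was called by limma. The difference between the 2 lists was not tested. Protein folding in that module had 44 tested genes with a median of 0.13, of which 10 were higher and 2 lower at an unadjusted p under 0.05 (27.3%, beside 11.9%). That median was -0.07 in season 1 and 0.34 in season 2.

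A further list was picked after the values were seen, for its large median. Protein complex oligomerization in the firebrick module holds 7 genes, all tested, with a median change of 0.67, 4 higher and 0 lower at an unadjusted p under 0.05 (57.1%, beside 11.9% of all tested genes) and none called by limma. The median was 1.37 in season 1 and 0.60 in season 2. Its median was positive in all 7 heated libraries, from 0.30 to 1.82, against -0.18 to 0.24 in control libraries. BnaAnng26270D, also listed under response to reactive oxygen species and unfolded protein binding, had 15, 20 and 31 as lowest, median and highest value in heated siliques, against 10, 11 and 14 in control siliques. The groups did not overlap, and the change was 0.79 ± 0.13 (SE, log2 scale, limma q = 0.0427), and 0.84 (q = 0.129) without both heated libraries with high seed-marker sums.

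The other members of this list were more variable. BnaC04g54510D had 4, 11 and 19 in heated siliques, against 1, 2 and 7 in control siliques (change 1.64 ± 0.37, SE, log2 scale, limma q = 0.129). BnaC03g78270D had 9, 25 and 41 in heated siliques, against 10, 13 and 28 in control siliques. Its change was 1.37 in season 1 and 0.15 in season 2. The remaining 4 genes stayed at values of 17 or below, and 1 of the 7, BnaCnng33980D, had a change of -0.05.

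These medians kept their sign without the libraries in doubt. Without both heated libraries with high seed-marker sums, the median change was 0.25 for protein folding, 0.28 for heat shock protein binding and 0.60 for protein complex oligomerization. Without heat season 1 replicate 2 and heat season 2 replicate 3, the medians were 0.25, 0.29 and 0.62 in the same order. By season, protein folding had a median of 0.36 in season 1 and 0.17 in season 2. With a pseudocount of 5, protein folding and heat shock protein binding both had a median of 0.17. The part of seed RNA in these lists was not tested beyond these values.

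Photosynthesis genes tended to lower values in heated siliques, but not in every library. Of the 44 printed genes of this term in the module lightblue3, a list printed in part, all were tested. A negative change was seen in 37, beside 27869 of all 54173 tested genes, and the median was -0.26. At an unadjusted p under 0.05, 11 were lower and 1 was higher (27.3%, beside 11.9% of all tested genes), and none passed a q-value under 0.05. In a bulk sample, fewer green cells and less of these RNAs per cell cannot be told apart. The median of the list was -0.34, 0.32 and -0.20 in heat replicates 1, 2 and 3 of season 1. It was 0.05, -0.54, -0.67 and -0.41 in heat replicates 1 to 4 of season 2, and -0.15 to 0.16 in control libraries. Heat season 1 replicate 2 and heat season 2 replicate 1 thus lay on the other side of 0. Without both libraries with high seed-marker sums, the median was -0.19, with 3 members lower at an unadjusted p under 0.05. Without the 2 that stood apart it was -0.30, with 20 lower. Neither count is set beside the share of all genes in its own fit. An excess of low p-values in this list was thus not shown without the libraries with high sums.

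The 3 photosynthesis genes with the highest values in the file illustrate this overlap. BnaA04g08570D had 2242, 2796 and 4508 as lowest, median and highest value in heated siliques, against 2597, 3571 and 5123 in control siliques. BnaA05g23550D had 385, 471 and 727 in heated siliques, against 576, 615 and 709 in control siliques, with a change of -0.38 ± 0.13 (SE, log2 scale, limma q = 0.292). BnaC09g01520D had 348, 556 and 891 in heated siliques, against 401, 510 and 702 in control siliques. The high values of 727 and 891 both came from heat season 1 replicate 2.

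**Figure D4:**
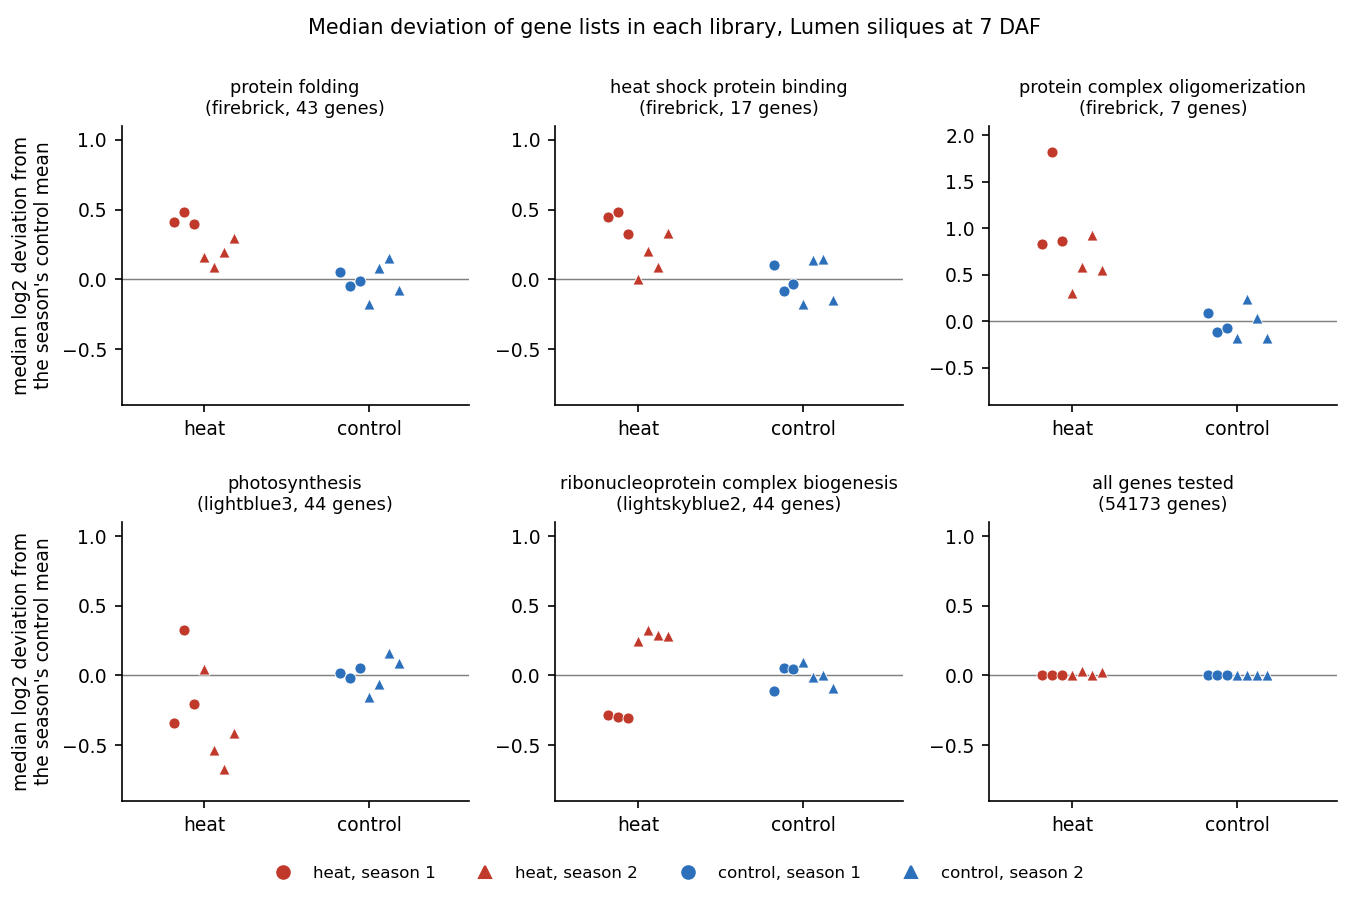
Median log2 deviation of the members of 5 gene lists and of all tested genes from the control mean of the same season, for each Lumen silique library at 7 DAF, heat on the left, control on the right, circles for season 1 and triangles for season 2. Protein folding is above 0 in all 7 heated libraries (0.09 to 0.49), photosynthesis is above 0 in 2 of 7, and ribonucleoprotein complex biogenesis is below 0 in all 3 heated libraries of season 1 and above 0 in all 4 of season 2.

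The 2 seasons were compared next. The mean change had the same sign in both seasons in 24530 tested genes (45.3%), and the others include genes with no change in a season. In a test of the difference between seasons over the 14 libraries, 0 genes were called by limma, with 3 at a q-value under 0.05 (0.00554%) and 6330 at an unadjusted p under 0.05 (11.7%). A fit of season 2 alone called 0 genes by limma, with 6478 at an unadjusted p under 0.05 (12% of 54156 tested genes). A fit of season 1 alone called 248 genes (0.447%), with 6341 at an unadjusted p under 0.05 (11.4%). Of these, 242 were below 1 in all 3 libraries of 1 treatment and so passed the filter through the other group only. In season 2, 92 of the 248 (37.1%) had the same sign.

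Ribonucleoprotein complex biogenesis, the term for the assembly of ribosomes and other RNA-protein particles, was picked after the values were seen, for its opposite medians. Its 44 printed genes of the lightskyblue2 module, a list printed in part, had a median change of 0.04 over both seasons. By season the median was -0.31 in season 1 and 0.33 in season 2. It was -0.31 to -0.28 in the 3 heated libraries of season 1, 0.25 to 0.33 in the 4 heated libraries of season 2, and -0.11 to 0.10 in controls. Since the list was picked for this pattern, these medians are a description. None of the 44 genes was called for a difference between seasons, but neither was any of the 54173 tested genes. At an unadjusted p under 0.05 in limma, 29 of the 44 (65.9%) had a lower change in season 1 than in season 2. Among all tested genes, 11.7% passed in either direction. This count rests on the values for which the list was picked, so it is not separate evidence. In season 1, heat replicates 1, 2 and 3, with seed-marker sums of 487, 2 and 666, had list medians of -0.28, -0.30 and -0.31. Without replicates 1 and 3 the median over both seasons was 0.16, and the part of seed RNA was not tested.

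The heat response was then set beside those of Solar siliques at 7 DAF, Lumen siliques at 14 DAF and Lumen seeds at 7 DAF, each with 7 heated and 7 control libraries. Fits of the same form called 1 gene in Solar siliques (0.00183%), 3 in Lumen siliques at 14 DAF (0.00548%) and 12 in Lumen seeds (0.0229%). Their shares at an unadjusted p under 0.05 were 11%, 15.9% and 8.93%. The difference in heat change between the hybrids was called for 0 genes by limma, with 2904 at an unadjusted p under 0.05 (5.36%). The difference between 7 and 14 DAF was called for 1 gene (0.00184%, with 9.41% at an unadjusted p under 0.05). That between siliques and seeds was called for 7 genes (0.013%, with 6.26% at an unadjusted p under 0.05). The contrasts share the 14 libraries described here. Seeds and siliques may also come from the same plots, which the fit between organs did not model.

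Both named genes that rose in siliques were among these 7. BnaCnng71190D had 93, 122 and 154 as lowest, median and highest value in heated Lumen seeds, against 86, 132 and 167 in control seeds. Its heat change was larger in siliques than in seeds by 1.52 ± 0.20 (SE, log2 scale, limma q = 0.00335). BnaCnng71250D had 34, 66 and 76 in heated seeds, against 46, 57 and 71 in control seeds, with a difference of 1.72 ± 0.24 (SE, log2 scale, limma q = 0.00335). Both were thus at higher levels in seeds than in siliques of either treatment, by their medians. In Solar siliques at 7 DAF, BnaCnng71190D had 112, 132 and 226 in heat, against 37, 44 and 144 in control. BnaCnng71250D had 37, 75 and 92 in heated Solar siliques, against 7, 19 and 101 in control Solar siliques. The groups overlapped for both genes, neither was called in Solar (limma q = 0.131 and 0.173), and the hybrids were not called different (differences of 0.41 ± 0.33 and 0.45 ± 0.41, SE, log2 scale, limma q = 0.941 and 0.949).

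BnaA05g05760D had 8, 16 and 30 in heated Solar siliques, against 14, 25 and 47 in control Solar siliques. At 14 DAF in Lumen it had 29, 48 and 97 in heated siliques, against 21, 45 and 116 in control siliques. Its heat change was lower at 7 than at 14 DAF by 1.62 ± 0.40 on the log2 scale (SE, limma q = 0.191), which was not called.

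The 4 genes of the folding and oligomerization lists named above were followed in the other material. BnaC01g38510D had a change of 1.71 ± 0.44 in Solar siliques, 1.38 ± 0.52 in Lumen siliques at 14 DAF and 2.22 ± 0.29 in Lumen seeds (SE, log2 scale, limma q = 0.154, 0.22 and 0.0104). Its level was higher in seeds, with 23, 45 and 94 in heated seeds and 7, 10 and 15 in control seeds. BnaA03g32320D had 1.43 ± 0.43, 0.26 ± 0.49 and 2.53 ± 0.27 in the same order, and only its rise in seeds was called (q = 0.00227). BnaAnng26270D had 0.53 ± 0.28, 0.34 ± 0.26 and 0.85 ± 0.19, and BnaA03g57740D had 0.33 ± 0.18, 0.27 ± 0.16 and 0.05 ± 0.14, none of them called (q of 0.202 to 0.89). None of these genes differed at the threshold between hybrids, times or organs. Over the 43 genes of the protein folding list, the median change was 0.24 in Solar siliques, 0.08 in Lumen siliques at 14 DAF and 0.25 in Lumen seeds. For photosynthesis it was -0.28, -0.31 and -0.02. Over all genes tested here that also entered those fits, the median was 0.0015, 0.0159 and -0.0978 in the same order.

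**Figure D5:**
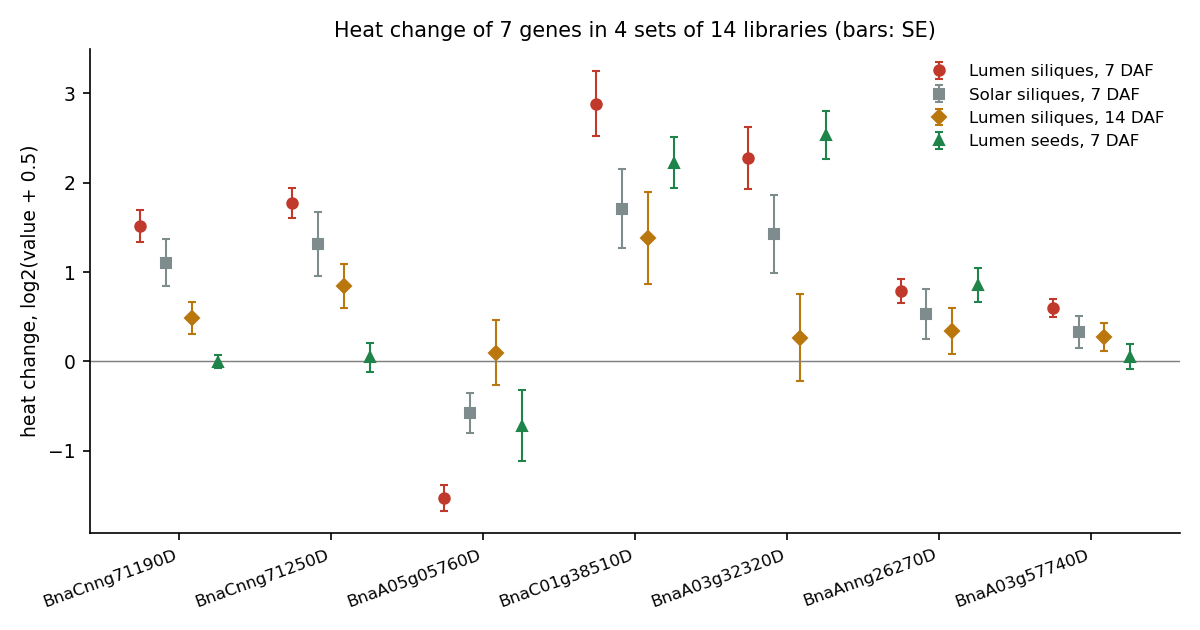
Heat change on the log2(value + 0.5) scale for 7 genes in Lumen siliques at 7 DAF, Solar siliques at 7 DAF, Lumen siliques at 14 DAF and Lumen seeds at 7 DAF, each from 7 heated and 7 control libraries, with bars for the SE. BnaCnng71190D and BnaCnng71250D have changes of 1.52 and 1.77 in Lumen siliques at 7 DAF and of 0.00 and 0.04 in seeds, while BnaC01g38510D has changes of 2.89, 1.71, 1.38 and 2.22 in the 4 contexts.

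The 10 hub transcription factors that the study names were also followed. They were chosen there in a network of seeds at 7 DAF, and 9 of them passed the filter here. None was called, beside 0.0111% of all tested genes, with limma q-values of 0.474 to 0.834 and changes of -0.29 to 0.38 on the log2 scale. Heat and control overlapped in all 9. Among all tested genes, only 0.0794% had every heated library above every control, and 0.103% had every one below. Neither count thus sets the hubs apart from other genes.

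SEP3 (BnaC03g57540D), a MADS-box factor of floral organ identity in Arabidopsis, had 65, 94 and 115 in heated siliques against 54, 86 and 95 in control siliques. ARF2 (BnaA06g21460D), an auxin response factor, had 29, 31 and 41 in heated siliques against 27, 31 and 37 in control siliques. PHL2 (BnaC03g43430D), a MYB-type factor of phosphate starvation responses in Arabidopsis, had 27, 32 and 40 in heated siliques against 27, 28 and 33 in control siliques. Heat and control overlapped in each of these 3, as in nearly all tested genes.

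The largest positive change was that of NGA1 (BnaC03g72370D), a B3-domain factor, at 0.38 ± 0.22 (SE, log2 scale, limma q = 0.522), with 2, 4 and 8 in heated siliques against 2, 3 and 4 in control siliques. ABI4 (BnaA03g18970D), a factor of abscisic acid signalling in Arabidopsis, had 3, 7 and 11 in heated siliques against 2, 5 and 9 in control siliques. MYC67 (BnaC08g31840D), a bHLH factor, had the most negative change, with 2, 4 and 5 in heated siliques against 3, 5 and 7 in control siliques. OSX2 (BnaA04g24200D), BnaA06g29050D and BnaC05g51140D had changes of -0.14, 0.22 and 0.08. INO1 (BnaC05g18750D) was at 0 or 1 in every library and was not tested.

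Changes were spread over both subgenomes of this allotetraploid, as read from the gene identifiers. At an unadjusted p under 0.05 there were 3122 of 25544 tested genes of the A subgenome (12.2%) and 3308 of 28465 of the C subgenome (11.6%). Each subgenome held 3 of the 6 called genes. By chromosome the share ran from 8.53% on C01 to 13.3% on C07. Values of genes with a close homoeologue are uncertain, since pseudoalignment could share reads between copies.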

How the data were processed

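RNA-seq libraries of stranded total RNA were pseudoaligned by the authors with kallisto (version 0.46 in the submitters' processing notes) and passed through sleuth. The authors deposited whole, normalized numbers, which are treated here as a score, because the kallisto estimates were TPM but the later scaling and rounding are not given in the sources used here, and reads per gene could not be recovered. Depth per library is therefore unknown, and the spread between libraries served as the error. All 112 value columns were matched to samples by name.

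Values were transformed to log2(value + 0.5) and fitted with limma 3.58.1 in R 4.3.3 (package data.table, version 1.17.8), with season as covariate and a trend in the prior variance. The differences between seasons, hybrids, sampling times and organs were interaction terms, the last 3 over 28 libraries with season fitted within each level. The limma fits were tested on simulated data with changes put into 200 genes of a mean of at least 20. A log2 change of 1 was recovered at q under 0.01 in 37.5% of them for heat. For the differences between seasons, hybrids, times and organs it was 0.5%, 10.5%, 16% and 0%. A log2 change of 2 was recovered in 84%, 39.5%, 59%, 58% and 36% in the same order. The simulated spread of each gene was taken over all libraries of a fit. It thus held the differences between seasons, hybrids, times or organs that the model takes out. These shares are therefore not the power of the real fits and can lie below it, above all between organs. Real changes of these sizes could still go uncalled. Exact permutation tests used 1400 arrangements within season.

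Named genes were the 10 hubs and up to 2 rises and 2 falls among called genes whose direction matched in both seasons and whose mean reached 20, plus genes stated as chosen after their values were seen. The members and lists were chosen with earlier results of these data known. No table at hand pairs the identifiers with names or sequences, so none are printed. Alternatives were a pseudocount of 5, other filters (none, a minimum of 5, a mean of at least 20), median-ratio rescaling, q under 0.05, no trend, a replicate block, each library left out, each season alone, season left out of the model, one fit over 56 silique libraries and, chosen after seeing the data, library weights and the omission of 2 pairs of heated libraries. Replicate numbers did not pair heat with control libraries: deviations of same-numbered libraries from their group means had correlations of -0.104 to 0.098 over 7 pairs. Figures were drawn with matplotlib 3.10.9.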

Additional observations from a re-analysis of the deposited data

Results flagged for a closer look

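Single libraries lay far from the other 3 of their group in 5 of 54 sets of season 2 values examined. Chance gives about 1 in 20 for continuous values, a rate that need not hold for small whole numbers with ties or for sets that share libraries. The heat library season 2 replicate 3 had 23 for OSX2 (BnaA04g24200D), against 17 to 18 in the other 3 heated libraries, and 41 for ARF2 (BnaA06g21460D), against 29 to 31. The other 3 cases were single steps at low whole numbers. BnaC05g51140D was at 4 in control season 2 replicate 4 and at 5 in the other 3 controls. NGA1 (BnaC03g72370D) was at 4 in control season 2 replicate 2 and at 3 in the others. BnaC01g38510D was at 1 in control season 2 replicate 2 and at 0 in the others.

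The heat change differed between siliques and seeds, by the interaction test, for BnaCnng71190D with a difference of 1.52 and for BnaCnng71250D with a difference of 1.72 on the log2 scale. That fit did not model plots that both organs may share. The median heat change of the ribonucleoprotein complex biogenesis list was -0.31 in season 1 and 0.33 in season 2, with every heated library on the side of its season. The difference of the medians was not tested, since the list was picked after its values were seen.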

How the results depend on the processing

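The count of 6 genes called for heat was 3 with a pseudocount of 5, 13 with a mean of at least 20, 75 at a q-value under 0.05, 2 with season left out of the model and 225 in one fit over 56 silique libraries. It was 248 in season 1 alone and 0 by limma in season 2 alone, with 6478 at an unadjusted p under 0.05. Of the alternatives chosen after seeing the data, library weights gave 17, leaving out the 2 heated libraries that stood apart gave 13, and leaving out the 2 with high seed-marker sums gave 0 by limma, with 5862 at an unadjusted p under 0.05. Leaving out each library in turn gave 0 to 23. The replicate block gave 0 by limma, with 5916 at an unadjusted p under 0.05, but replicate numbers did not pair the libraries (0 of 7 pairs over 0.1, with 4 of 7 heated libraries closest to their own number).

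The difference between seasons, with 0 calls by limma and 6330 genes at an unadjusted p under 0.05, gave 3 with a pseudocount of 5, 1 with no filter, 2 with a minimum value of 5, 3 at a q-value under 0.05, 6 without a trend, 3 with library weights and 8 without the 2 libraries that stood apart. Leaving out single libraries gave 0 to 9. The difference between hybrids, with 0 calls by limma and 2904 genes at an unadjusted p under 0.05, gave 1 without the 2 libraries with high seed-marker sums.

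The difference between sampling times, with 1 call, gave 2 with a pseudocount of 5, 4 with a minimum value of 5, 5 at a q-value under 0.05, 0 with the replicate block, 2 in season 1 alone, 23 in season 2 alone and 2 without the libraries with high seed-marker sums. Leaving out single libraries gave 1 to 2. The difference between organs, with 7 calls, gave 12 with a pseudocount of 5, 24 at a q-value under 0.05, 2 without a trend, 1 with the replicate block, 24 in season 1 alone, 0 in season 2 alone, 25 with library weights, 18 without the libraries that stood apart and 4 without those with high seed-marker sums. Leaving out single libraries gave 2 to 11.

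Among uncalled hubs, the sign turned for PHL2 (BnaC03g43430D, -0.015) and ARF2 (BnaA06g21460D, -0.055) in season 1 alone and for SEP3 (BnaC03g57540D, -0.0052) without the libraries with high seed-marker sums. ARF2 ran from -0.0040 to 0.10 when single libraries were left out. The cause of these shifts was not tested. Whole-number values limit the precision of genes at low levels, and depth is unknown.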

Other observations

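Among the shorter lists of the firebrick module, 2 were picked after their values were seen. Sulfate assimilation, by which plants reduce sulfate for cysteine, held 9 genes with a median heat change of 0.25 on the log2 scale. None was called, and 2 were higher at an unadjusted p under 0.05 (22.2%, beside 11.9% of all tested genes). Its median ran from -0.07 to 0.71 across heated libraries and from -0.12 to 0.19 across controls. Trehalose catabolic process held 3 genes with a median change of 0.69, none of them called. Its median was 1.38 in both heated libraries with high seed-marker sums and -0.09 to 0.76 in the other 5, against -0.52 to 0.85 in controls, and the part of seed RNA in it was not tested.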
